A study of Mus musculus with 16 samples.

Results

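The genes of the integrated stress response that centre on the transcription factor ATF4 were followed in mouse cerebral cortex with mutations of Aifm1. The module holds 38 genes of the 55573 gene IDs in the count table, chosen by symbol from a list of the pathway. It takes in the kinases and the translation factor eIF2 at its start, the transcription factors in its middle, and target genes for amino acid supply, growth control and secreted signals. The gene's product, apoptosis-inducing factor, is a mitochondrial flavoprotein on which assembly of the respiratory chain depends. Hq-mut cortices came from Harlequin mice, which the labels describe as stock B6CBACa Aw-J/A-Aifm1Hq/J, and Hq-WT cortices from their wild-type littermates. Aifm1-KI cortices came from mice whose knock-in deletes arginine 200 of the protein, and Aifm1-WT cortices from the wild-type littermates of that line. The strain of every sample is given as C57BL/6. All cortices were harvested at about postnatal day 180 and none was treated. Each of the 4 groups held 4 libraries, numbered 1 to 4. The labels name no Cre driver or cell-type promoter in either line.

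Cells enter the integrated stress response when a kinase phosphorylates the alpha subunit of eIF2, which slows the start of most translation but favours translation of the ATF4 mRNA. The kinases sense different troubles: HRI (Eif2ak1) heme shortage and, through the protease OMA1, mitochondrial damage; PERK (Eif2ak3) unfolded protein in the endoplasmic reticulum; and GCN2 (Eif2ak4) uncharged tRNA. ATF4 then drives genes of amino acid import and synthesis, and its partners CHOP (Ddit3), TRIB3 and the eIF2 phosphatase subunit GADD34 (Ppp1r15a) later restrain or end the response. The pathway is known for its part in mitochondrial disease of brain and muscle.

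No gene of the module passed the threshold in either mutant line. In Harlequin cortex, 29 of the 36 members that could be tested were higher in value than in the littermates and 7 lower, with a median log2 fold change of 0.09. Among all 17969 genes tested there, 53.1% were higher and the median was 0.01. Trib3, which encodes a pseudokinase that ATF4 induces and that restrains ATF4, had the largest log2 fold change among the members, 2.09. Its low level was 1.09 ± 0.199 CPM (SD, n = 4) in Hq-mut and 0.267 ± 0.219 CPM (SD, n = 4) in Hq-WT. In knock-in cortex the members lay the other way, 13 of 35 higher in value and 22 lower, with a median of -0.07, against 51.6% higher and a median of 0.0055 over 18383 genes. That median was -0.01 without Aifm1-KI 2 and 4, with 13 of 36 members higher, against 49.7% of all genes. By mean log2 CPM these libraries were the highest of their group for striatal and other markers. They were its lowest for cortical excitatory neuron and oligodendrocyte markers. CPM are library-size-scaled counts, brought to a common depth with TMM factors over all 16 libraries, and a gene was called at an adjusted p under 0.05 in edgeR's quasi-likelihood test. Members called numbered 0 of 36 in Harlequin cortex, where 3 genes or 0.0167% of all were called, and 0 of 35 in knock-in cortex, where 0% of genes were called. These fits do not use the pairing of Harlequin libraries by replicate number, which is taken up below. At an unadjusted p under 0.05, 1 member was higher in Harlequin cortex and 0 lower, against 0.952% and 1.19% of all genes. The same count in knock-in cortex was 3 members higher and 2 lower, against 7.05% and 4.34% of all genes. DESeq2 also called 0 members in both lines, where it called 3 of 35998 genes in Harlequin cortex and 159 of 36845 in knock-in cortex. Levels in bulk tissue cannot tell fewer cells of a type from less RNA per cell.

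**Figure D1:**
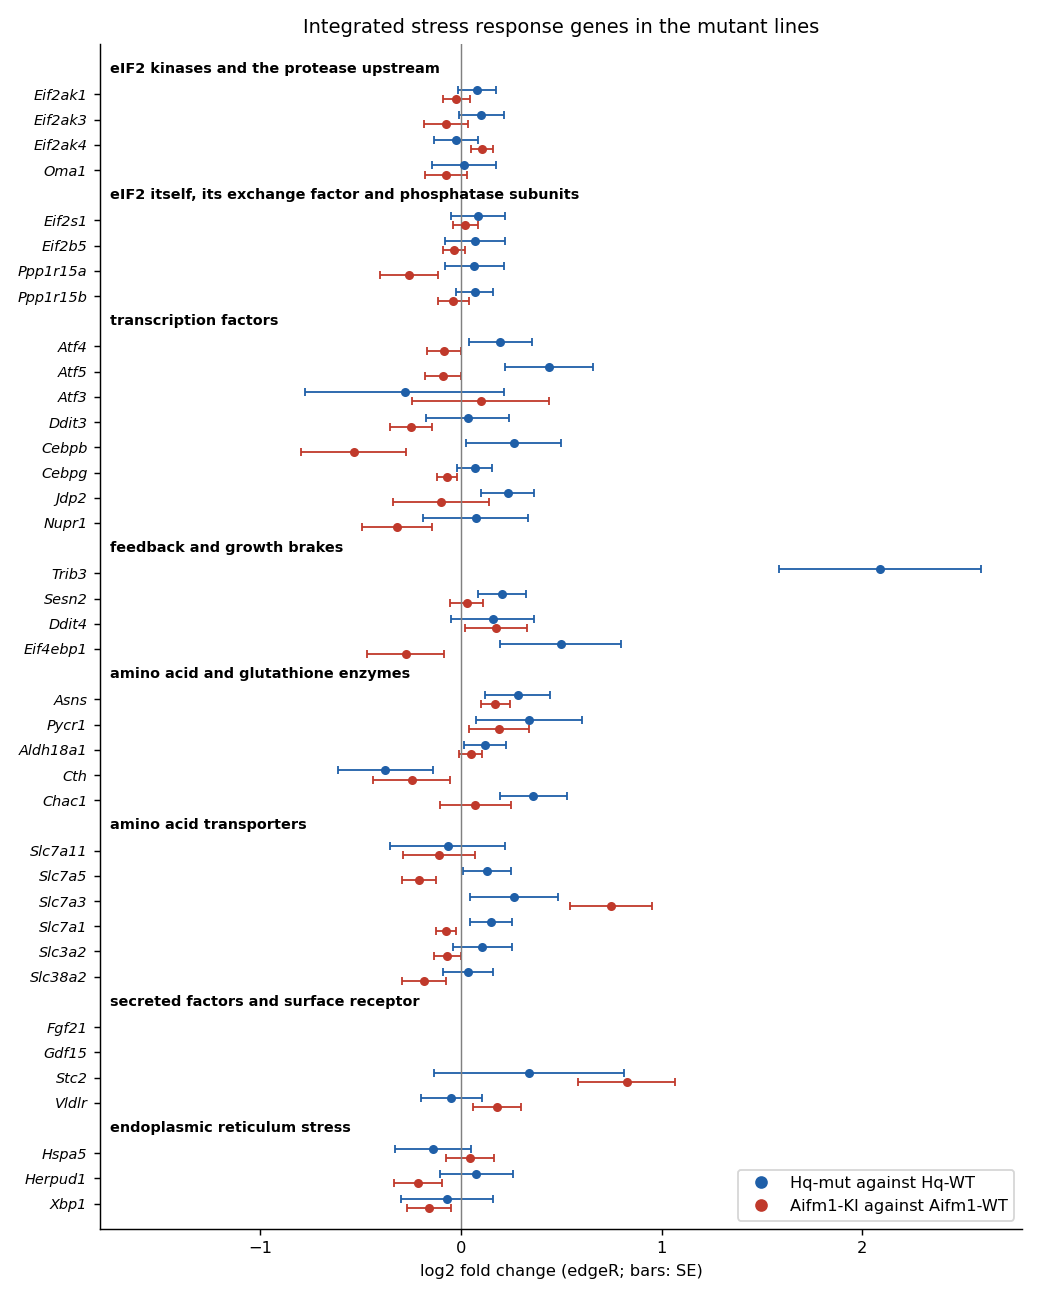
Log2 fold change with its standard error (edgeR without the replicate block, bars) for each member, grouped by role, in Hq-mut against Hq-WT (blue) and Aifm1-KI against Aifm1-WT (red), 4 libraries a group. Trib3 stands at 2.09 in Harlequin cortex, the other members of that line between -0.38 and 0.50, and a gene without a point had too few counts to be tested in that comparison.

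The libraries differed in depth and in tissue makeup. The smallest library, Hq-WT 3, held 10671580 counts and the largest, Aifm1-KI 2, 32551594. For these depths 3 counts, taken as the limit that a count of 0 allows, stood for 0.0881 to 0.282 CPM. These limits cover counting error only. Whether every library is its own animal is not in the labels, and a p-value here reflects spread among libraries that may be partly technical. Aifm1 itself had 3.74, 2.14, 3.30 and 3.97 CPM in Hq-mut, against 23.2, 25.3, 23.9 and 23.6 CPM in Hq-WT. In Aifm1-KI it had 21.9, 24.7, 26.2 and 22.9 CPM, against 21.6, 22.8, 23.1 and 23.2 CPM in Aifm1-WT, which checks nothing, since a deletion of 1 residue need not lower the mRNA. Cortical excitatory neuron markers averaged a log2 CPM of 5.80 in Aifm1-KI 2 and 6.57 to 7.19 in the other 15 libraries. Striatal markers averaged 3.47 to 5.40 in Aifm1-KI, highest in libraries 2 and 4, against 3.23 to 3.54 in Aifm1-WT. They averaged 3.69 to 5.70 in Hq-mut, highest in library 3, against 3.38 to 3.86 in Hq-WT. Summed striatal markers were 268 to 658 CPM in Aifm1-KI, against 228 to 275 CPM in Aifm1-WT, and 243 to 860 CPM in Hq-mut, against 286 to 313 CPM in Hq-WT. Summed oligodendrocyte markers were 1894 to 4276 CPM in Aifm1-KI, lowest in library 2, against 3557 to 4802 CPM in Aifm1-WT, and 2167 to 4886 CPM in Hq-mut, against 1920 to 6055 CPM in Hq-WT, with 4550 CPM in Hq-mut 2 and 1920 CPM in Hq-WT 2. Choroid plexus markers reached 5.12 in Aifm1-KI 2 and 5.01 in Hq-WT 2, and liver markers 3.97 and 4.17 in Aifm1-WT 1 and 2. The liver and choroid plexus lists share Ttr. All 10 striatal, 8 oligodendrocyte and 8 choroid plexus markers had counts in every group, and their part in the members' values was not tested except where a value without those libraries is given. Hq-mut 2 held the highest of the 16 values for 15 of 36 members, against 21.4% of 19129 genes, and Aifm1-KI 2 the lowest for 16 of 36, against 12.9%. Without Hq-mut 2, 25 of 36 members were higher in Harlequin cortex, and without Aifm1-KI 2, 15 of 36 were higher in knock-in cortex.

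ATF4 binds DNA together with C/EBP proteins at a composite site, the C/EBP-ATF response element, and the promoters of the target genes were read for its core. RefSeq promoter windows (GRCm38.p6, 250 bases before to 50 after the start) were found for 33 of the 38 members; Ppp1r15b, Eif4ebp1, Cth, Slc7a5 and Slc7a3 had none. The letters TGATGNAA, searched on both strands, occurred in the windows of 11 of these 33 members, 33.3%, against 1219 of 27025 genes, 4.51%. The ER stress element, searched as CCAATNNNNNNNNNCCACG on both strands, occurred in 1 member, Hspa5, 3.03%, against 0.137% of genes. No match overlapped a match to the other motif. A match is a description of letters and not of binding. The members were chosen as genes of the ATF4 pathway, its targets among them, so their larger share is no independent support. The whole windows of Trib3, Chac1 and Asns are shown because these target genes with the element were higher in Hq-mut in all 4 pairs of same-numbered libraries and have their values in every library given below, with the element in capitals and the gene's strand read 5′ to 3′. The Trib3 window is chr2:152344011-152344310, minus strand, the Chac1 window chr2:119350992-119351291, plus strand, and the Asns window chr6:7693160-7693459, minus strand.
Trib3: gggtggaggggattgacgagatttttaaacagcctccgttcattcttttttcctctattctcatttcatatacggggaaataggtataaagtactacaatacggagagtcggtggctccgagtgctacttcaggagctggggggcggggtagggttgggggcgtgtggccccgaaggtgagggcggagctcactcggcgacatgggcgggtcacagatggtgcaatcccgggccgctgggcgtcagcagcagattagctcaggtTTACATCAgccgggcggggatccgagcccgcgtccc
Chac1: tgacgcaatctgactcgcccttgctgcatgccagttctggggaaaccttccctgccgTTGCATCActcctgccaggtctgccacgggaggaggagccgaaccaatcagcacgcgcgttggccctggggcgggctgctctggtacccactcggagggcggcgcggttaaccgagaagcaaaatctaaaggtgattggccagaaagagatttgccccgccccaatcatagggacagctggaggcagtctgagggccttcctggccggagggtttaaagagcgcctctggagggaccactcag
Asns: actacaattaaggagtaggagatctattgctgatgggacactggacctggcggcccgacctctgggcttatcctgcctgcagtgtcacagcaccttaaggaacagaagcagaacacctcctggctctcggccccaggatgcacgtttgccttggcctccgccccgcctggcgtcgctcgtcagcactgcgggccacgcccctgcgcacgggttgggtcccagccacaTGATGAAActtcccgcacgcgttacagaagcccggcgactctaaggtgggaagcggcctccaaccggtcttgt
The Trib3 match lies at chr2:152344039-152344046, 14 bases after RefSeq's start and before the gene start of 152344032 in GENCODE. The Asns match lies at chr6:7693225-7693232, 23 bases before RefSeq's start and inside the gene as GENCODE bounds it, from 7675169 to 7693254. The Chac1 match lies at chr2:119351049-119351056, 193 bases before the start.

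The other 8 members with the element and Hspa5 are shown by the site alone with 10 bases on each side, all 9 of the C/EBP-ATF sites reading TGATGCAA on one strand or the other, so that orientation is what differs among them.
Slc7a11, first site: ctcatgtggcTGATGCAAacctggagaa
Slc7a11, second site: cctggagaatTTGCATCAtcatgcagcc
Jdp2: tagccggggcTGATGCAAcccgtcccgc
Pycr1: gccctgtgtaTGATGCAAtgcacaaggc
Atf3: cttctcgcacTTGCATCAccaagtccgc
Nupr1: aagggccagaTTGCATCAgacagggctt
Herpud1: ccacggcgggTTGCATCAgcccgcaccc
Vldlr: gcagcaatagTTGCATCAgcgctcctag
Fgf21: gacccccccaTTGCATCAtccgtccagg
Hspa5: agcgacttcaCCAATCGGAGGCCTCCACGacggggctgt
On the same build, the capitals lie at chr3:50443672-50443679 and chr3:50443653-50443660 for Slc7a11, chr12:85599383-85599390 for Jdp2 and chr11:120643844-120643851 for Pycr1. They lie at chr1:191183436-191183443 for Atf3, chr7:126625573-126625580 for Nupr1 and chr8:94386317-94386324 for Herpud1. The remaining matches lie at chr19:27216820-27216827 for Vldlr, chr7:45615622-45615629 for Fgf21 and chr2:34772025-34772043 for Hspa5. The window of Atf4, chr15:80254934-80255233, plus strand, held neither motif.

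Of the kinases, Eif2ak1 had the highest mRNA level. Per kilobase of merged exons, Eif2ak1 had a median of 11.7 CPM over the 16 libraries, Eif2ak3 4.85 and Eif2ak4 4.38, with Oma1 at 2.51. The ranges over libraries did not overlap between Eif2ak1, at 10.01 to 13.1 CPM per kilobase, and the next kinase, Eif2ak3, at 3.65 to 5.63. Those of Eif2ak3 and Eif2ak4, at 3.42 to 4.91, did. Eif2ak1 had 69.5, 71.8, 70.8 and 74.2 CPM in Hq-mut, against 68.8, 70.6, 59.02 and 72.4 CPM in Hq-WT. It had 67.1, 56.8, 65.7 and 58.6 CPM in Aifm1-KI, against 62.5, 60.3, 64.2 and 65.1 CPM in Aifm1-WT. The groups overlapped in both lines, with log2 fold changes of 0.08 (SE 0.10) and -0.02 (SE 0.07) in edgeR. Of the 51-base words of Eif2ak1, 9.17% also occur in other genes, mostly in Aimp2, which overlaps it on the other strand.

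PERK mRNA (Eif2ak3) also overlapped between groups. It had 30.5, 29.4, 33.9 and 29.1 CPM in Hq-mut, against 30.9, 31.4, 25.8 and 26.2 CPM in Hq-WT. Aifm1-KI libraries held 30.0, 22.0, 31.5 and 24.7 CPM, against 31.4, 27.1, 27.6 and 27.5 CPM in Aifm1-WT, where library 1 stood above the others. GCN2 mRNA (Eif2ak4) was the kinase whose Aifm1-KI libraries all lay above those of Aifm1-WT, at 34.6, 36.6, 35.8 and 34.8 CPM against 31.4, 33.7, 33.6 and 33.4 CPM. Its log2 fold change was 0.10 (SE 0.05, adjusted p = 0.490 in edgeR). In Harlequin cortex Eif2ak4 had 29.3, 25.5, 31.9 and 32.8 CPM, against 32.5, 28.4, 30.1 and 30.4 CPM in Hq-WT, with no separation. Oma1, the inner-membrane protease that cleaves DELE1 and so reports mitochondrial stress to HRI, ran from 4.42 to 6.78 CPM over the 16 libraries, with log2 fold changes of 0.01 in Hq-mut and -0.07 in Aifm1-KI.

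The genes of eIF2 and of its recycling were close to even. Eif2s1, the alpha subunit that the kinases phosphorylate, ran from 22.6 to 33.9 CPM over all libraries, and Eif2b5, the catalytic subunit of the exchange factor eIF2B, from 49.2 to 74.5 CPM. Ppp1r15a, the inducible subunit of the eIF2 phosphatase, ran from 10.4 to 19.1 CPM, and Ppp1r15b, the constant one, from 65.6 to 87.2 CPM. All 4 were slightly higher in value in Hq-mut, with log2 fold changes between 0.07 and 0.09 (edgeR), but 1 of 4 was higher in pair 4. Without Hq-mut 2, Eif2b5 stood at -0.06 and Ppp1r15a at -0.05. In Aifm1-KI, 1 of the 4 was higher and 3 lower, with Ppp1r15a at -0.26 (SE 0.14, adjusted p = 0.509 in edgeR) and the other 3 between -0.04 and 0.02. Of the 51-base words of Ppp1r15b, 10.6% also occur in Gm26616.

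Among the transcription factors, Atf5 had the largest log2 fold change in Harlequin cortex and the ATF4 mRNA a smaller one. Atf4 had 104, 155, 113 and 96.1 CPM in Hq-mut, against 87.4, 102, 111 and 108 CPM in Hq-WT. Library 2 of Hq-mut stood above the rest, and the log2 fold change was 0.20 (SE 0.16, adjusted p = 0.999985 in edgeR), and 0.03 without that library. In Aifm1-KI Atf4 had 91.0, 82.8, 105 and 89.9 CPM, against 95.1, 92.8, 92.2 and 111 CPM in Aifm1-WT, with a log2 fold change of -0.08 (SE 0.09). ATF4 is regulated mainly at translation, which an mRNA level does not show.

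Atf5, a relative of ATF4 that acts in the mitochondrial unfolded protein response, had 17.7, 30.7, 30.5 and 23.9 CPM in Hq-mut, against 14.1, 17.0, 25.3 and 19.9 CPM in Hq-WT. The groups overlapped, yet Atf5 was higher in Hq-mut within every pair of libraries with the same number. Its log2 fold change was 0.44 (SE 0.22, unadjusted p = 0.0749), and with the replicate number as a block 0.43 (SE 0.12, adjusted p = 0.523 in edgeR). In Aifm1-KI Atf5 had 15.9, 17.1, 21.4 and 18.8 CPM, against 19.3, 20.3, 19.3 and 18.8 CPM in Aifm1-WT, with no separation.

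CHOP mRNA (Ddit3), an ATF4 target that favours cell death, showed no common direction in Harlequin cortex. It had 20.8, 36.7, 25.2 and 18.7 CPM in Hq-mut, against 24.1, 27.7, 26.5 and 21.1 CPM in Hq-WT, higher in 1 of 4 pairs. In Aifm1-KI it had 18.2, 15.03, 21.5 and 17.9 CPM, against 21.5, 19.9, 23.5 and 21.0 CPM in Aifm1-WT. That difference was -0.25 on the log2 scale (SE 0.10, unadjusted p = 0.0395, adjusted p = 0.426 in edgeR), and Aifm1-KI 3 lay within the range of Aifm1-WT. Another ID in the table carries the symbol Ddit3 and shares 3.21% of its 51-base words; the values are for ENSMUSG00000025408.

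None of the remaining factors reached an unadjusted p under 0.05 in either mutant comparison in edgeR without the replicate block. Jdp2, an AP-1 repressor, had a log2 fold change of 0.23 (SE 0.13) in Hq-mut and was higher in all 4 pairs. Cebpg, the C/EBP protein that pairs with ATF4, stood at 0.07 (SE 0.09) and was also higher in all 4 pairs, in pair 4 only by 0.0003. In Aifm1-KI all its libraries lay below those of Aifm1-WT, at -0.07 (SE 0.05, adjusted p = 0.601 in edgeR). Cebpb, a C/EBP activator of stress and inflammation genes, stood at 0.26 (SE 0.24) in Hq-mut and -0.54 (SE 0.26, adjusted p = 0.466 in edgeR) in Aifm1-KI, on a level of 2.61 to 8.43 CPM. Without Hq-mut 2 its Harlequin value was 0.01. It shares 18.1% of its 51-base words with Tmem189, so its count is uncertain. Nupr1, a small stress-induced chromatin protein, stood at 0.07 (SE 0.26) in Hq-mut and -0.32 (SE 0.17) in Aifm1-KI. Atf3, an immediate stress factor, was low at 0.334 to 1.46 CPM, with log2 fold changes of -0.28 (SE 0.50) and 0.10 (SE 0.34) in these lines. Within the factors, 7 of 8 were higher in value in Hq-mut, and 1 of 8 was higher in Aifm1-KI.

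Trib3 was the feedback gene that stood apart in Harlequin cortex. It had 0.808, 1.18, 1.27 and 1.09 CPM in Hq-mut, against 0.0547, 0.101, 0.471 and 0.440 CPM in Hq-WT. Behind these lie 19, 31, 28 and 26 counts in Hq-mut, against 1, 2, 5 and 9 counts in Hq-WT, so the libraries did not overlap and Hq-WT 1 and 2 were under the 3-count limit. From the summed counts, 104 against 17, the ratio was 4.42 with an exact 95% interval of 2.63 to 7.87, which covers counting error only. The log2 fold change was 2.09 (SE 0.50, unadjusted p = 0.0018, adjusted p = 0.999985 in edgeR), and with the replicate block 2.12 (SE 0.44, adjusted p = 0.523 in edgeR). The filter on low counts asked for 0.456 CPM in 4 libraries, which all 4 Hq-mut libraries reached and 1 of Hq-WT, so Trib3 was tested by way of the group where it is high and its p is no independent support.

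In knock-in cortex Trib3 had too few counts to be tested. Aifm1-KI libraries held 0.107, 0.440, 0.510 and 0.481 CPM, against 0.334, 0.526, 0.330 and 0.309 CPM in Aifm1-WT. The summed counts, 34 against 33, gave a ratio of 1.02 with an interval of 0.613 to 1.70. All 8 libraries of that line and all 4 of Hq-WT lay below the lowest Hq-mut library.

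Sesn2, an ATF4 target that restrains mTORC1 when leucine is short, separated the Harlequin groups by a small amount. It had 13.1, 14.9, 12.5 and 12.5 CPM in Hq-mut, against 11.7, 11.6, 11.6 and 11.2 CPM in Hq-WT. Every Hq-mut library lay above every Hq-WT library, with a log2 fold change of 0.20 (SE 0.12, adjusted p = 0.999985 in edgeR). In Aifm1-KI it had 11.8, 10.95, 11.1 and 13.0 CPM, against 11.3, 11.3, 11.4 and 11.99 CPM in Aifm1-WT, which overlapped. Eif4ebp1, the translation brake that ATF4 induces, stood at 0.50 (SE 0.30) in Hq-mut and at -0.28 (SE 0.19) in Aifm1-KI, on a level of 1.28 to 4.65 CPM. Without Hq-mut 2 its Harlequin value was 0.20. Ddit4, another brake on mTORC1 that also answers to glucocorticoids and hypoxia, stood at 0.16 (SE 0.20) in Hq-mut and 0.17 (SE 0.16) in Aifm1-KI.

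Few members separated the groups of a line completely. In Harlequin cortex Trib3, Chac1 and Sesn2, 3 of 36 members, had every Hq-mut library above every Hq-WT library, and 0 had every one below, against 0.707% and 0.974% of all genes tested. In knock-in cortex Stc2, Asns and Eif2ak4, 3 of 35 members, lay wholly above Aifm1-WT and Cebpg wholly below, against 2.62% and 2.34% of all genes tested.

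**Figure D2:**
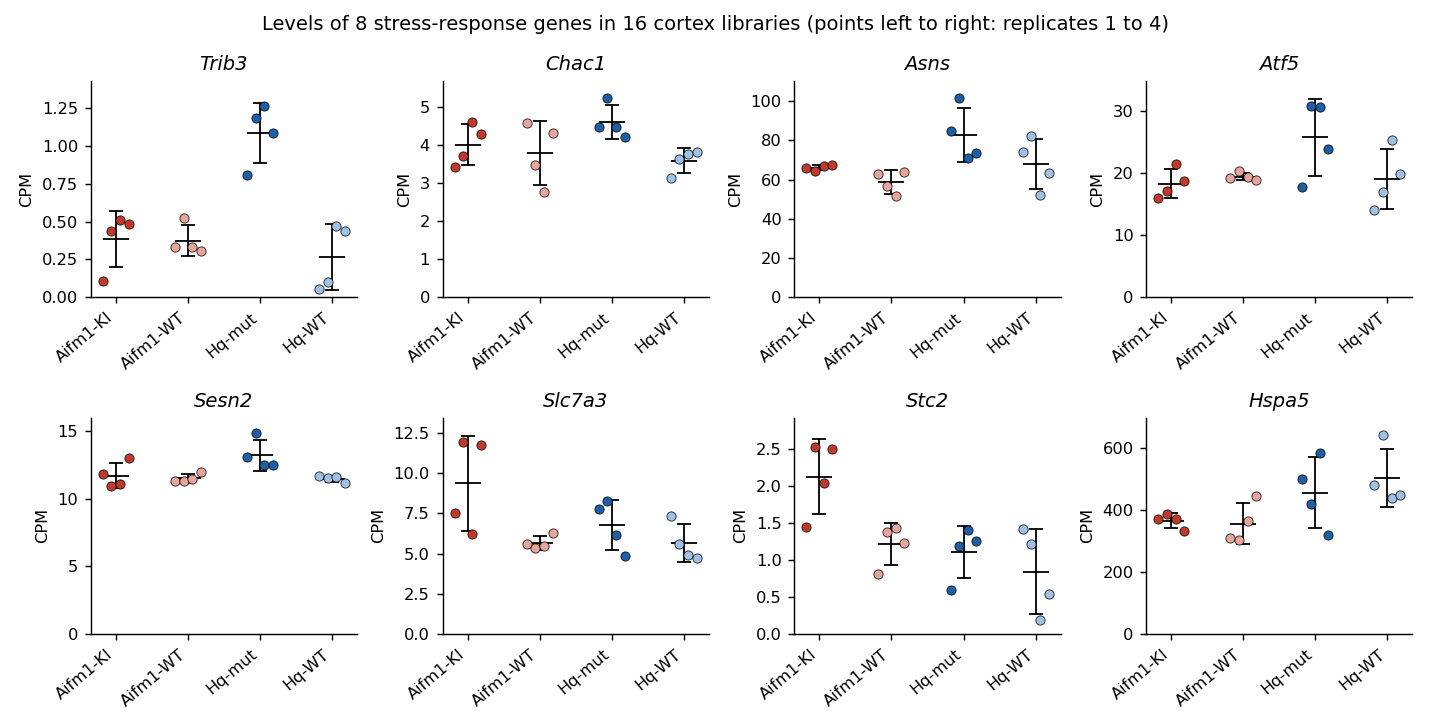
CPM of 8 members in each of the 16 libraries by group, with points for replicates 1 to 4 from left to right, the mean as a bar and the SD as whiskers (n = 4). The 4 Hq-mut libraries lie between 0.808 and 1.27 CPM for Trib3, above all 12 others, whereas Hspa5 overlaps between the groups of each line.

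Of the 5 amino acid and glutathione enzymes, 4 were higher in value in both mutant lines. Asns, which makes asparagine and is a classic ATF4 target, had 84.6, 101, 71.0 and 73.4 CPM in Hq-mut, against 73.9, 82.1, 52.3 and 63.2 CPM in Hq-WT. The groups overlapped, but within pairs 1 to 4 the log2 ratio was 0.19, 0.30, 0.44 and 0.22. Its log2 fold change was 0.28 (SE 0.16, unadjusted p = 0.112), and with the replicate block 0.29 (SE 0.07, unadjusted p = 0.0035, adjusted p = 0.523 in edgeR). In Aifm1-KI Asns had 65.8, 64.3, 67.1 and 67.1 CPM, all above the 63.0, 56.5, 51.5 and 64.0 CPM of Aifm1-WT. That difference was 0.17 (SE 0.07, unadjusted p = 0.0378, adjusted p = 0.424 in edgeR).

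Chac1, which breaks down glutathione and is induced through ATF4, had 4.47, 5.23, 4.47 and 4.22 CPM in Hq-mut, against 3.12, 3.63, 3.77 and 3.82 CPM in Hq-WT. Every Hq-mut library lay above every Hq-WT library, with a log2 fold change of 0.36 (SE 0.17, unadjusted p = 0.0558, adjusted p = 0.999985 in edgeR). In Aifm1-KI it had 3.42, 3.70, 4.59 and 4.29 CPM, against 4.58, 3.48, 2.75 and 4.32 CPM in Aifm1-WT, with no separation. Pycr1 and Aldh18a1, enzymes of proline synthesis in the mitochondrion, stood at 0.34 (SE 0.26) and 0.12 (SE 0.10) in Hq-mut and at 0.19 (SE 0.15) and 0.05 (SE 0.06) in Aifm1-KI. Cth, the transsulfuration enzyme that makes cysteine, was the single tested member lower in Hq-mut in all 4 pairs, at -0.38 (SE 0.23), with 2.96 to 3.85 CPM in Hq-mut and 2.98 to 5.65 CPM in Hq-WT.

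In knock-in cortex 2 of the 6 transporters reached an unadjusted p under 0.05, Slc7a3 and Slc7a5. Slc7a3, a carrier of arginine and lysine, had 7.54, 11.9, 6.21 and 11.8 CPM in Aifm1-KI, against 5.58, 5.34, 5.45 and 6.26 CPM in Aifm1-WT. Libraries 2 and 4 of Aifm1-KI were far above the rest and library 3 lay within the range of Aifm1-WT. The log2 fold change was 0.75 (SE 0.20, unadjusted p = 0.0046, adjusted p = 0.368 in edgeR). By mean log2 CPM, Aifm1-KI 2 and 4 are also the highest libraries of that line for striatal, oligodendrocyte precursor, astrocyte and meningeal markers. They are its lowest for cortical excitatory neuron and oligodendrocyte markers. Which of these go with Slc7a3 was not tested. In Harlequin cortex Slc7a3 had 7.79, 8.28, 6.19 and 4.88 CPM, against 7.33, 5.603, 4.90 and 4.75 CPM in Hq-WT, higher in all 4 pairs by 0.04 to 0.56 on the log2 scale.

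**Figure D3:**
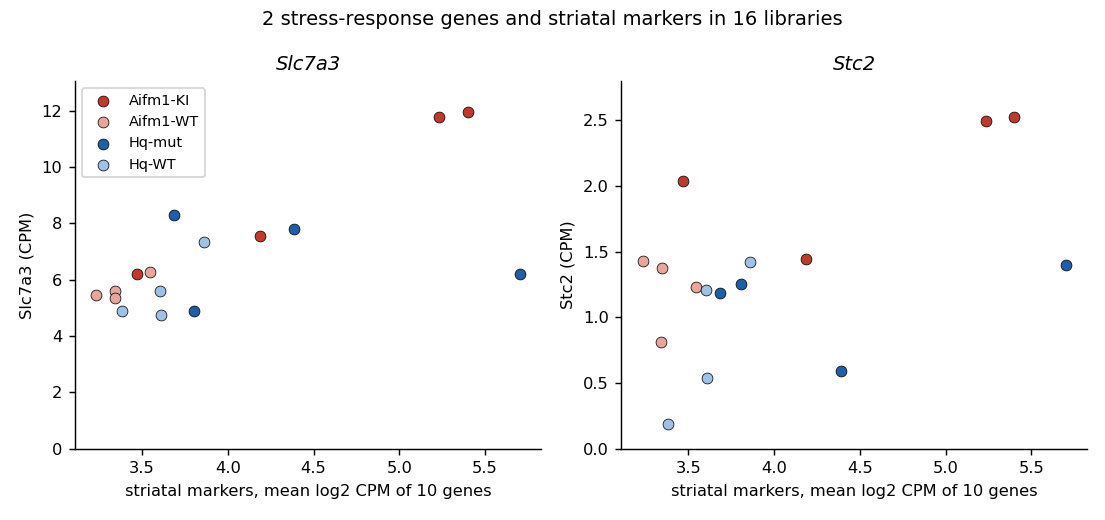
CPM of Slc7a3 and Stc2 (vertical axes) against the mean log2 CPM of 10 striatal marker genes (horizontal axes) in the 16 libraries, coloured by group. Aifm1-KI 2 and 4, at 5.40 and 5.23 on the horizontal axis, hold the 2 highest Slc7a3 levels, whereas Hq-mut 3, at 5.70, has 6.19 CPM.

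Slc7a5, the large neutral amino acid carrier, was lower in value in Aifm1-KI, at 51.9, 44.2, 59.02 and 53.5 CPM, against 61.7, 61.8, 61.9 and 55.8 CPM in Aifm1-WT. Aifm1-WT 4 lay within the range of Aifm1-KI and the other 3 above it, and the log2 fold change was -0.21 (SE 0.08, unadjusted p = 0.0327, adjusted p = 0.417 in edgeR). In Hq-mut it had 57.7, 70.6, 58.3 and 52.9 CPM, against 58.2, 50.3, 60.5 and 50.3 CPM in Hq-WT, with no separation. Its heavy-chain partner Slc3a2 had 97.0, 134, 105 and 88.2 CPM in Hq-mut, against 96.0, 116, 94.4 and 88.5 CPM in Hq-WT. The Aifm1-KI values of Slc3a2 were 93.9, 82.0, 94.6 and 91.8 CPM, against 92.4, 90.7, 91.3 and 105 CPM in Aifm1-WT. Neither line separated its groups for Slc3a2.

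Slc7a11, the cystine and glutamate exchanger that also pairs with SLC3A2, varied by more than its group difference. It had 59.2, 35.2, 81.2 and 53.4 CPM in Hq-mut, against 65.3, 32.8, 82.0 and 59.7 CPM in Hq-WT, so that libraries with the same number lay close together. The log2 fold change was -0.07 (SE 0.29), and the same value with the replicate block was -0.06 (SE 0.08). In Aifm1-KI it had 75.0, 81.9, 43.3 and 68.8 CPM, against 69.4, 74.6, 86.7 and 61.8 CPM in Aifm1-WT. Slc7a1, another cationic amino acid carrier, stood at 0.15 (SE 0.10) in Hq-mut, higher in all 4 pairs, and at -0.07 (SE 0.05) in Aifm1-KI. Slc38a2, which imports glutamine and other small neutral amino acids, stood at 0.04 (SE 0.12) in Hq-mut and -0.19 (SE 0.11) in Aifm1-KI.

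The secreted signals of mitochondrial stress were at the limit of detection. Fgf21, a metabolic hormone released in mitochondrial myopathy, had 0 counts in the 4 Hq-mut libraries, 1 count in Hq-WT, 2 counts in Aifm1-KI and 2 counts in Aifm1-WT. Gdf15, a stress cytokine that reduces food intake, had 2, 7, 1 and 1 counts in Hq-mut, against 1, 2, 0 and 2 counts in Hq-WT. The ratio of summed Gdf15 counts was 1.59 with an exact 95% interval of 0.509 to 5.83. In Aifm1-KI it had 0, 4, 1 and 0 counts, against 1, 3, 1 and 1 counts in Aifm1-WT. At this depth neither gene allowed a comparison, and both stayed below 0.27 CPM in every library.

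Stc2, a secreted glycoprotein of the unfolded protein response, had 1.44, 2.53, 2.04 and 2.49 CPM in Aifm1-KI, against 0.811, 1.37, 1.43 and 1.23 CPM in Aifm1-WT. Every Aifm1-KI library lay above every Aifm1-WT library, with a log2 fold change of 0.83 (SE 0.24, unadjusted p = 0.0068, adjusted p = 0.368 in edgeR). The highest values were again those of Aifm1-KI 2 and 4. With Aifm1-KI 2 and 4 left out, which leaves 2 mutant libraries, 0 of 36 members reached an unadjusted p under 0.05 in edgeR, against 6.19% of all genes. The log2 fold changes were then 0.49 for Stc2, 0.29 for Slc7a3, -0.13 for Slc7a5, -0.13 for Ddit3 and 0.17 for Asns, the last at its value over all libraries. In Harlequin cortex Stc2 had 0.596, 1.18, 1.40 and 1.25 CPM, against 1.42, 1.21, 0.188 and 0.538 CPM in Hq-WT, with no common direction. Vldlr, the lipoprotein receptor that PERK signalling can raise, stood at -0.05 (SE 0.15) in Hq-mut and 0.18 (SE 0.12) in Aifm1-KI.

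Of the 3 endoplasmic reticulum genes of the module, 1 was higher in value in each mutant line. Hspa5, the chaperone BiP and the gene with the ER stress element, had 501, 418, 585 and 319 CPM in Hq-mut, against 481, 639.9, 438 and 449 CPM in Hq-WT. The log2 ratio within pairs 1 to 4 was 0.06, -0.61, 0.42 and -0.49, and the log2 fold change -0.14 (SE 0.19, adjusted p = 0.999985 in edgeR). In Aifm1-KI Hspa5 had 371, 388, 370.5 and 332 CPM, against 309, 302, 365 and 445 CPM in Aifm1-WT. Xbp1, whose spliced mRNA encodes a factor of the unfolded protein response, stood at -0.07 (SE 0.23) in Hq-mut and -0.16 (SE 0.11) in Aifm1-KI. Herpud1, a component of the pathway that removes misfolded proteins, stood at 0.08 (SE 0.18) and -0.21 (SE 0.12). The table counts all reads of a gene, so spliced Xbp1 was not separated.

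Harlequin libraries with the same number deviated together from their group means and were read as pairs. The labels do not say what a number stands for. With pairs taken 1 by 1, the members higher in Hq-mut numbered 25, 25, 27 and 20 of 36 in pairs 1 to 4, against 49.4%, 51.5%, 50.8% and 49.6% of all genes. The median log2 ratio of the members was 0.07, 0.11, 0.19 and 0.03 in these pairs. Members higher in all 4 pairs numbered 11 of 36, against 8.98% of all genes. They were Trib3, Asns, Chac1, Atf5, Jdp2, Cebpg, Sesn2, Slc7a3, Slc7a1, Eif2ak1 and Eif2b5. Cth was the 1 member lower in all 4 pairs, against 8.82% of all genes. Some of these ratios were near 0, with 0.0003 for Cebpg and -0.009 for Cth in pair 4. Eif2ak1 stood at 0.01 and Eif2b5 at 0.02 in pair 1. With the replicate number as a block, 28 of 36 members were higher, against 51.6% of all genes, and 5 reached an unadjusted p under 0.05, against 7.97% of all genes. These were Trib3, Asns, Atf5, Jdp2 and Chac1, and the lowest adjusted p among the members was 0.523 in edgeR. For Trib3 the limit set by the filter on low counts, given above, holds here too.

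Genes beside the module were read as background to it. The aminoacyl-tRNA synthetases, which load tRNA and many of which ATF4 induces, were 12 of 12 higher in value in Hq-mut with a median log2 fold change of 0.14, and 0 were called. Aars had 164, 178, 158 and 161 CPM in Hq-mut, against 143, 149.6, 131 and 153 CPM in Hq-WT, and Iars had 61.8, 56.2, 62.8 and 59.3 CPM, against 53.2, 54.0, 51.0 and 54.6 CPM. Aars and Iars, together with Yars, 3 of the 12, had every Hq-mut library above every Hq-WT library, against 0.707% of all genes tested. Their log2 fold changes were 0.20 (SE 0.09) for Aars, 0.17 (SE 0.09) for Iars and 0.19 (SE 0.10) for Yars, each with an adjusted p of 0.999985 in edgeR. In Aifm1-KI 4 of the 12 synthetases were higher in value, with a median of -0.02.

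The list of serine synthesis and mitochondrial one-carbon enzymes, which ATF4 also drives, holds the amino acid carrier Slc1a4 as well. Of its genes, 8 of 8 were higher in value in Hq-mut with a median of 0.18, the smallest by 0.01. In Aifm1-KI 3 of 8 were higher, with a median of -0.01. Mthfd2, the mitochondrial methylenetetrahydrofolate dehydrogenase, stood at 0.47 (SE 0.19, unadjusted p = 0.0335, adjusted p = 0.999985 in edgeR) in Hq-mut. It had 6.64, 8.05, 7.64 and 6.01 CPM in Hq-mut, against 4.32, 4.39, 6.68 and 5.23 CPM in Hq-WT. Aldh1l2, the mitochondrial formyltetrahydrofolate dehydrogenase, stood at 0.47 (SE 0.31) in Hq-mut and 0.55 (SE 0.19, adjusted p = 0.373 in edgeR) in Aifm1-KI. The median log2 ratio of the 8 genes was 0.52 in pair 2, against 0.07 to 0.14 in the other pairs. Without pair 2, 5 of 8 were higher, with a median of 0.09.

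The other eIF2 and eIF2B subunits with PKR and DELE1 were 7 of 8 higher in value in Hq-mut with a median of 0.11, but 3 of 8 with a median of -0.05 when Hq-mut 2 was left out. Eif2s3x, a gene of the eIF2 gamma subunit, stood at 0.19 (SE 0.18) and Eif2b3 at 0.15 (SE 0.15). In Aifm1-KI 3 of the 8 were higher in value. The ATF6 and IRE1 arms of the unfolded protein response lay the other way, with 4 of 16 higher in value in Hq-mut and a median of -0.07. That sign turned to 0.01 without Hq-mut 4 and to 0.03 without Hq-WT 2. By pair, 14, 0, 16 and 3 of these 16 genes were higher in Hq-mut, the same pairs in which Hspa5 was higher or lower. Hsp90b1, the chaperone GRP94, stood at -0.15 (SE 0.12), and Atf6, the sensor itself, at 0.14 (SE 0.17). In Aifm1-KI 6 of the 16 were higher in value, with a median of -0.04, which became 0.05 without Aifm1-WT 4.

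**Figure D4:**
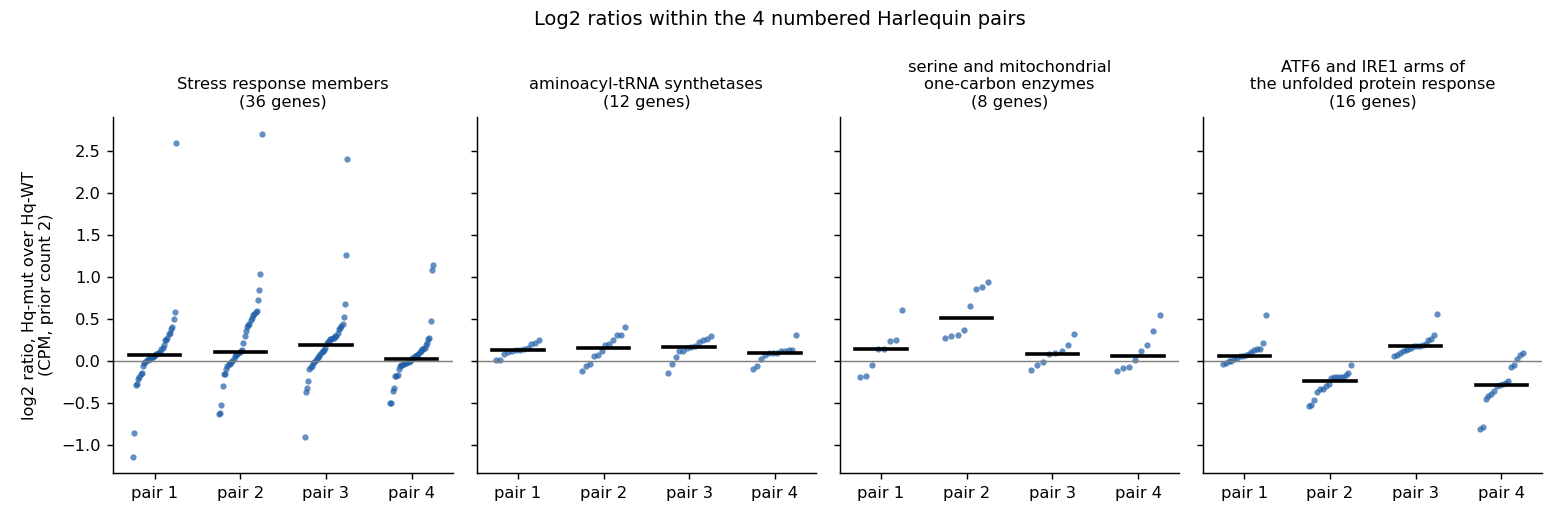
Log2 ratio of Hq-mut to Hq-WT (CPM with a prior count of 2) for each gene in the 4 pairs of libraries with the same number, for 36 members and 3 neighbouring gene lists, with a bar at the median. The medians of the members and of the synthetases lie above 0 in all 4 pairs, whereas those of the unfolded protein response genes lie above 0 in pairs 1 and 3 and below it in pairs 2 and 4.

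Whether the members answered differently to the mutations was tested directly, as the effect in the Harlequin line minus the effect in the Aifm1 line over all 16 libraries. Of 36 members tested 0 were called in edgeR, where 2 genes or 0.0105% of 19129 were called. DESeq2 called 0 members and 5 of 38975 genes. The difference was above 0 for 28 of 36 members, with a median of 0.15 on the log2 scale, against 50% of all genes and a median of -0.00024. At an unadjusted p under 0.05 stood 4 members above 0 and 0 below, against 1.87% and 3.22% of all genes. They were Trib3 at 2.07 (SE 0.68), Cebpb at 0.79 (SE 0.37), Eif4ebp1 at 0.77 (SE 0.37) and Slc7a5 at 0.34 (SE 0.15), with adjusted p from 0.944 to 0.946 in edgeR. Their number ran from 1 to 6 with 1 library left out, with 1 without Aifm1-KI 2, Aifm1-WT 1 or Aifm1-WT 2 and 2 without Hq-mut 2. Without Hq-mut 2 Cebpb stood at 0.54 and Eif4ebp1 at 0.48, and Trib3 at 2.03. Trib3 had too few counts to be tested in knock-in cortex or between the wild types. Its p in the difference uses the same Hq-mut libraries as before and is no independent support. For Slc7a3 and Stc2 the difference was -0.48 (SE 0.31) and -0.49 (SE 0.55). The synthetases stood above 0 in 12 of 12, with a median of 0.15. These values do not use the pairing of the Harlequin libraries. With the replicate number as a block within each line, 28 of 36 members were above 0, with a median of 0.15, and 0 were called. In that fit 7 of 36 reached an unadjusted p under 0.05 in edgeR in either direction, against 10.9% of all genes.

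Hq-WT was set against Aifm1-WT to show how far the stocks differ without a mutation. Of 35 members 18 were higher in value in Hq-WT than in Aifm1-WT and 17 lower, where 51% of all genes were higher, with a median of 0.0044, against 0.0046 over all 18106 genes. None of the 35 was called in edgeR, where 101 genes or 0.558% were called. DESeq2 called 0 members and 504 of 36203 genes. Members at an unadjusted p under 0.05 were 1 higher and 1 lower, against 5% and 7.73% of all genes. Hspa5 was the higher one, with the CPM given above and a log2 fold change of 0.49 (SE 0.15, adjusted p = 0.196 in edgeR). It was called when genes with low counts were kept in the test, with an adjusted p of 0.0322 in edgeR. With 1 library left out its log2 fold change ran from 0.36 to 0.63. The highest Hspa5 level was that of Hq-WT 2, at 639.9 CPM, a library with many choroid plexus transcripts. Ddit4 was the lower one, at 23.6, 24.3, 24.6 and 18.6 CPM in Hq-WT, against 28.6, 28.2, 28.5 and 31.7 CPM in Aifm1-WT, which is -0.37 on the log2 scale (SE 0.10, adjusted p = 0.149 in edgeR). It was the 1 member whose wild types did not overlap, against 3.14% of genes wholly higher and 4.31% wholly lower. The ATF6 and IRE1 genes were 14 of 16 higher in value in Hq-WT, with a median of 0.21 and 0 called, against 0.558% of all genes. At an unadjusted p under 0.05 in edgeR, 6 of the 16 were higher and 0 lower, against 5% and 7.73% of all genes. For 3 of them every Hq-WT library lay above every Aifm1-WT library, against 3.14% of all genes. Stock, litter and handling cannot be told apart in this comparison.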

How the data were processed

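Per the labels, cortical RNA came from a TRIzol extraction, and a KAPA mRNA-seq kit was used for library construction; per the series' design text, it was read as 51-base single-end reads on a HiSeq 4000, and adapters and low-quality reads were removed. Per the submitters' processing notes, STAR 2.6, SAMtools and HTSeq were used with the mm10 genome. The values are raw read counts per gene, deposited by the authors in one table of 55573 IDs, with none normalized. Strand setting: not given in the sources used here, and likewise the annotation release.

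Counts were tested with edgeR 4.0.16 in R 4.3.3 (TMM factors, filterByExpr with a minimum count of 10, quasi-likelihood test, Benjamini-Hochberg adjustment over all genes tested), each comparison fitted on its own libraries and the difference of effects on all 16. CPM used TMM factors over all libraries, and log2 CPM a prior count of 2. Alternatives were DESeq2 1.42.0, relative log expression factors, no filter on low counts, a replicate block, and leaving out libraries or pairs. The pipeline was tested on simulated data.

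Same-numbered Harlequin libraries deviated together, with correlations of 0.41 to 0.53 against at most 0.098 for other numbers, so the numbers pair them, a pairing taken from the data; those of the other comparisons did not. No library pair was a duplicate: chi-square per gene was 3.48 or more within groups.

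The members and lists were chosen with earlier results of these data known. All 38 members are named. Values in every library are given for members called, at an unadjusted p under 0.05 in a mutant comparison, or heading a role, and up to 2 genes with the smallest Harlequin p are named per neighbouring list; Yars and the library-specific extremes were chosen after values were seen. Gene bounds and shared 51-base words came from a GENCODE annotation on GRCm38, promoter windows from RefSeq on GRCm38.p6.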

Additional observations from a re-analysis of the deposited data

Results flagged for a closer look

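Of 152 groups of 4 libraries examined (38 members in 4 groups), 14 held a library set apart from the other 3 by a gap above Dixon's 95% critical value, and chance alone sets apart about 1 in 20. In Aifm1-WT 4 Atf4 had 110.9 CPM (others 92.18 to 95.06), Slc3a2 105.3 CPM (90.74 to 92.43), Ddit4 31.73 CPM (28.18 to 28.58) and Slc7a5 55.76 CPM (61.7 to 61.91). In Aifm1-WT 1 Eif2ak3 had 31.35 CPM (others 27.05 to 27.63), Eif2ak4 31.4 CPM (33.41 to 33.68) and Cebpg 47.15 CPM (48.13 to 48.26). In Aifm1-WT 2 Trib3 had 0.5257 CPM (others 0.3085 to 0.334) and Gdf15 0.1213 CPM (0.04408 to 0.05503), both on few counts.

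In the Harlequin line, Cth had 3.853 CPM in Hq-mut 2 (others 2.964 to 3.021). Herpud1 had 77.07 CPM in Hq-WT 2 (others 49.85 to 53.56), a library with many choroid plexus transcripts. Aifm1-KI 2, which also had many, held the lowest Herpud1 level of all libraries, and a link to these transcripts was not tested. Fgf21 had 0.05047 CPM in Hq-WT 2 (others 0), which is 1 count. Ddit4 had 18.64 CPM in Hq-WT 4 (others 23.58 to 24.57) and Aldh18a1 19.49 CPM in Hq-WT 3 (others 21.35 to 21.66), the library with the fewest counts.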

How the results depend on the processing

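Members called stayed at 0 in both mutant comparisons and in the difference of effects under every alternative run. The 1 exception among all comparisons was Hspa5 between the wild types with no filter on low counts (1 member called; 0.51, adjusted p = 0.0322 in edgeR). The member median kept its sign in Harlequin cortex (0.081 to 0.161 with 1 library left out), in knock-in cortex (-0.0763 to -0.0198, and -0.0137 without Aifm1-KI 2 and 4) and in the difference of effects (0.110 to 0.187). Between the wild types it ran from -0.0101 to 0.0664, with 0.0664 without Aifm1-WT 4 and 0.0422 without Hq-WT 1.

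Genes called depended on the tool and on single libraries, and the cause was not tested. Knock-in cortex had 0 in edgeR, 159 in DESeq2 and 0 to 46 with 1 library left out (46 without Aifm1-KI 3). Harlequin cortex had 3 in edgeR, 1 to 2 with 1 library left out, 1 with any pair left out, 24 in DESeq2 with the replicate block, and 1 with the replicate block without pair 3, an alternative added after seeing the data. The difference of effects had 2 in edgeR, 5 in DESeq2 and 1 to 2 with 1 library left out. The wild types had 101 in edgeR, 560 with no filter, 504 in DESeq2 and 32 to 231 with 1 library left out.

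The replicate block left the number of genes called in Harlequin cortex at 3, with a member median of 0.0949, and changed no member call. At an unadjusted p under 0.05 stood 1433 genes with the block and 385 without it. In the lines whose numbers do not pair it gave 0 genes in knock-in cortex and 99 between the wild types.

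With 1 library left out, 16 of 36 members changed sign in Harlequin cortex, 10 of them without Hq-mut 2, and 10 of 35 in knock-in cortex, none of them called. Ranges with 1 library left out follow for the members given in every library. In knock-in cortex, Eif2ak1 ran from -0.0691 to 0.0136 (0.0699 without Aifm1-KI 2 and 4), and Eif2ak3 from -0.162 to 0.0084 (0.108 without Aifm1-KI 2 and 4), both positive without Aifm1-KI 2. Slc7a11 ran from -0.221 to 0.0374, Chac1 from -0.0546 to 0.164, Sesn2 from -0.0337 to 0.0599 and Hspa5 from -0.0335 to 0.168. Sesn2 was -0.0103 without Aifm1-KI 2 and 4 and -0.0075 without Aifm1-WT 1 and 2, which gave -0.154 for Hspa5. In Harlequin cortex, Ddit3 ran from -0.202 to 0.156 and was -0.0058 with the replicate block and -0.140 without pair 2. Eif2ak4 ran from -0.0715 to 0.0468 and was 0.0203 without pair 1 and 0.0183 without pair 2. Slc7a11 ran from -0.263 to 0.122, Slc3a2 from -0.0282 to 0.209 and Hspa5 from -0.264 to 0.0123, with 0.0396 for Hspa5 without pair 2. Stc2 was -0.0563 without pair 3 and -0.0418 with the replicate block without pair 3. The other members that changed sign with 1 library left out were Eif2b5, Ppp1r15a, Herpud1, Ddit4, Oma1, Vldlr, Xbp1, Atf3, Eif2s1, Nupr1 and Slc38a2 in Harlequin cortex, and Atf3, Eif2s1, Jdp2 and Ppp1r15b in knock-in cortex. Members at an unadjusted p under 0.05 numbered 2 to 8 in knock-in cortex (2 without Aifm1-WT 3, 8 without Aifm1-KI 3) and 1 to 3 in Harlequin cortex with 1 library left out. Fgf21 and Gdf15 were too low to test in any comparison.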

Other observations

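Members with and without the C/EBP-ATF element in their promoter window are set side by side as a description, with no test. In Hq-mut, 7 of the 10 tested members with the element were higher in value, with a median log2 fold change of 0.15, and 18 of the 21 tested members whose window lacked it, with a median of 0.09. In Aifm1-KI, 5 of 9 with the element were higher in value, with a median of 0.07, and 7 of 21 without it, with a median of -0.07. In the difference of effects the medians were 0.22 and 0.14. Trib3 counts among the members with the element in Hq-mut and in the difference, but not in Aifm1-KI, where it was not tested. The limit set for it by the filter on low counts holds here too. With Trib3 set aside, the median with the element is the value of Herpud1, 0.08, in Hq-mut. In the difference it is then the value of Pycr1, 0.15.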
